A study of Mus musculus with 4 samples.

Results

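The domains described here are stretches of H3K36me3 of intermediate length that have exactly 1 H3K4me3 region beside or inside them, in the forebrain of mouse embryos. They number 1816 of the 10192 H3K36me3 regions on chromosomes 1 to 19. The members were chosen by the tag counts of both ChIP libraries against their own inputs. An H3K4me3 region was a run of 1 kb bins with at least 20 ChIP tags and at least 4 times the scaled input, and an H3K36me3 region was a run of 5 kb bins with at least 20 ChIP tags and at least 2 times the scaled input. A pseudocount of 1 was added to both sides of each ratio, and called bins separated by at most 1 bin were merged. A member is an H3K36me3 region of 20 to 75 kb with 1 H3K4me3 region that overlaps it or lies within 5 kb.

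Trimethylation of lysine 4 of histone H3 (H3K4me3) marks the nucleosomes at the start of active and poised genes, where it is laid down by complexes of the SET1 and MLL families. Trimethylation of lysine 36 (H3K36me3) is laid down by SETD2, which travels with elongating RNA polymerase II, and so covers the bodies of transcribed genes. A stretch of H3K36me3 with H3K4me3 at 1 end is the textbook picture of a transcribed gene, and the developing forebrain is rich in dividing progenitors and young neurons that transcribe many such genes.

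The tissue was forebrain of CD1 embryos at stage E11.5, in which pieces from many embryos were pooled. The 4 groups were H3K4me3 ChIP, its input, H3K36me3 ChIP and its input, with 1 library each and no genotype or treatment that set them apart. The H3K4me3 ChIP and its input were put through whole-genome amplification (WGA), a step that the other 2 libraries did not go through, so the mark and the amplification cannot be told apart. CD1 is an outbred strain, and whole forebrain mixes cell types, so a value is an average over cells in which fewer marked cells and fewer marked nucleosomes per cell cannot be told apart. The tissue was not checked against marker genes, because positions are in the build mm8 and no annotation of that build was used here. For the same reason members are named by position and not by gene, and no sequence is shown.

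The libraries held from 2513019 (H3K4me3 input) to 23110768 (H3K36me3 input) nuclear tags after collapse. On the autosomes the means were 3.09 (H3K4me3 ChIP), 1.03 (its amplified input), 4.35 (H3K36me3 ChIP) and 9.51 (its unamplified input) tags per covered kb. Ratios below are ChIP over input after scaling by library totals. With 1 library per group there is no test between groups. All intervals are 95% intervals. Those of ratios cover counting error of tags in these libraries only. Those of shares and densities count members as if they were drawn independently, although members are not replicates. Neither kind covers variation between libraries.

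H3K4me3 bins made up 0.638% of the 1 kb bins with a tag, and H3K36me3 bins 9.75% of the 5 kb bins. Among the 4232 H3K36me3 regions of 20 to 75 kb, 42.9% had exactly 1 H3K4me3 region and so are the members, 1830 had none and 586 had 2 or more. Nothing is read from that share, since the same calls chose the members. When only contact with the domain counted, rather than a distance of up to 5 kb, the members numbered 864.

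Members were mostly short within the allowed range. The median member was 30 kb wide, with quartiles at 25 and 45 kb, and 932 of them measured 20 to 30 kb, 573 measured 35 to 50 kb and 311 measured 55 to 75 kb. At the lower limit of width, 392 members measured 20 kb and 387 regions of 15 kb with 1 H3K4me3 region were left out, with median H3K36me3 ratios of 5.39 and 5.13. At the upper limit, 31 members measured 75 kb and 27 regions of 80 kb were left out, with medians of 5.30 and 5.14. H3K36me3 levels therefore showed no step at either limit. At the H3K4me3 limits, the highest bin held 20 to 24 tags in 104 members and stood at 4 to 5 times input in 56.

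A member held a median of 981 H3K36me3 tags, from 88 to 7623, and its ratio to input had a median of 5.10 (interquartile range 3.98 to 6.58, full range 1.66 to 24.5). At least 5-fold enrichment was found in 963 members, and 32 members lay under 2.5-fold. The H3K4me3 region held a median of 76 ChIP tags (interquartile range 45 to 118) against a median of 1 tag of its amplified input. It was 1 kb wide in 752 members, 2 kb in 719, 3 kb in 270 and 4 kb or wider in 75. In 576 members its amplified input held no tag, so ratios of single H3K4me3 regions are imprecise.

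The H3K4me3 region sat at an end of the domain in most members. It lay beyond an end or reached into its outermost 5 kb in 1584 members, or 87.2% (85.6 to 88.7). Of the length of a domain with 5 kb added on each side, 47.6% lies there. That share holds for a point, and an H3K4me3 region only had to reach in, so its share under even placement is larger. The borders come from the same calls that chose the members, so the excess at the ends is a description. The end of lower coordinate was used by 767 members and the end of higher coordinate by 816. The former were 48.4% (46.0 to 51.0) of the 1583 with H3K4me3 at 1 end, so both directions of the genome were used about equally. In 1 member the H3K4me3 region reached both ends, and in 232 members it lay inside. The share at an end fell with width, from 92.0% (90.0 to 93.6) at 20 to 30 kb to 84.1% (80.9 to 87.0) at 35 to 50 kb and 78.8% (73.8 to 83.2) at 55 to 75 kb, while the part of a domain that lies near its ends falls as well. With contact required, the share at an end was 53.8% of 864, a set that drops some members and admits other regions. The 47.6% does not apply to that set, and no share of length was computed for it. Among the 1816 members 1199 H3K4me3 regions lay wholly outside the called H3K36me3 bins, 173 straddled a border and 444 lay within.

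Members at the median of each position class show what a typical domain looks like in all 4 libraries. With H3K4me3 at the end of lower coordinate, the domain on chromosome 8 from 80445001 to 80480000 held 876 H3K36me3 tags and 362 tags of its unamplified input, a ratio of 5.34 (4.72 to 6.06). Its H3K4me3 region of 1 kb started at the first base of the domain and held 54 H3K4me3 tags, 2 amplified input tags, 2 H3K36me3 tags and 42 unamplified input tags. The H3K4me3 region lay in the first called 5 kb bin of the domain, and within that bin its own 1 kb was low in H3K36me3.

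With H3K4me3 at the end of higher coordinate, the domain on chromosome 4 from 48440001 to 48490000 held 1187 H3K36me3 tags against 497 of its input, which gives 5.27-fold enrichment (4.74 to 5.87). Its H3K4me3 region lay beyond the called bins (48493001 to 48495000) with 67 H3K4me3 tags, 1 amplified input tag, 2 H3K36me3 tags and 32 unamplified input tags. With H3K4me3 inside, the domain on chromosome 15 from 82940001 to 82990000 held 2311 H3K36me3 tags against 1154, a ratio of 4.42 (4.12 to 4.75). Its H3K4me3 region (82976001 to 82977000) held 44 H3K4me3 tags, 1 amplified input tag, 7 H3K36me3 tags and 43 unamplified input tags. In all 3 domains H3K36me3 was low where H3K4me3 was high.

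To place the marks more finely than the bins allow, the 1583 members with H3K4me3 at 1 end were turned so that the domain lay to the right and aligned on the summit of the unamplified input. The summit was the 200 bp window with most tags of that input, in the H3K4me3 region or within 500 bp of it. The rule did not use this input to find H3K4me3 regions. It did use it to call the H3K36me3 bins, which set the border and the side of the domain. Input made by sonication is known to be enriched at open chromatin, such as the nucleosome-poor stretch at active gene starts. A summit is the highest window by choice, so its height is no finding. The rise around it was wider than the window, at 26.9 tags per kb from 400 to 200 bp on the outer side and 25.9 from 200 to 400 bp on the domain side, against 11.5 at the outer edge of the 3 kb window.

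H3K4me3 leaned towards the domain. It was highest from 200 to 400 bp on the domain side of the summit, at 60.0 tags per kb, where the matching stretch on the outer side held 32.4. Within 1 kb of the summit 79256 H3K4me3 tags lay on the domain side and 45448 on the outer side, a ratio of 1.74 (1.72 to 1.76). The unamplified input itself leaned slightly the other way, 0.959 (0.946 to 0.972), and the amplified input held 1403 and 1256 tags, 1.12 (1.03 to 1.21). The lean of H3K4me3 was thus larger than that of either input, and it was found at both ends: 1.80 (1.77 to 1.83) where H3K4me3 lay at the end of lower coordinate and 1.69 (1.66 to 1.72) at the other. Counted from the middle of the H3K4me3 region rather than from the summit, the ratio was 1.17 (1.15 to 1.18).

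**Figure D1:**
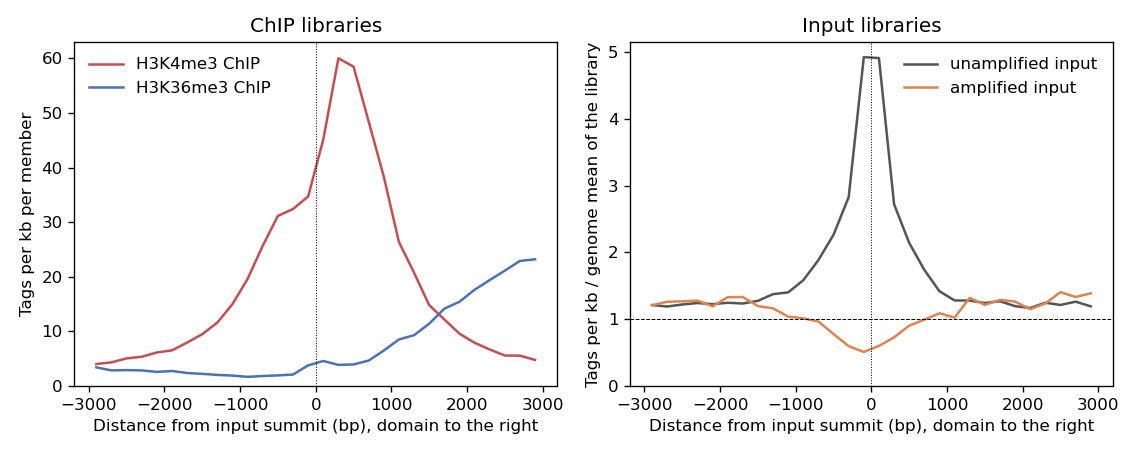
Tags around the summit of the unamplified input in the H3K4me3 region of 1583 members, with the domain to the right, in steps of 200 bp. Left, H3K4me3 and H3K36me3 ChIP tags per kb per member; right, both inputs relative to their genome means (dashed line at 1). H3K4me3 peaks at 60.0 tags per kb to the right of the summit, H3K36me3 reaches 23.2 at the right edge, and the amplified input dips to 0.511 times its mean where the unamplified input has its summit. H3K4me3 bins were called against the amplified input and the summit was picked on the unamplified input, so dip and summit are partly set by choice.

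Single members showed the lean too. More H3K4me3 tags on the domain side were found in 1165 of 1583 members, or 73.6% (71.4 to 75.8), more on the outer side in 400, and equal numbers in 18. The ratio was 1.90 (1.86 to 1.94) where the H3K4me3 region was 1 kb wide, 1.75 (1.72 to 1.78) at 2 kb, 1.55 (1.51 to 1.60) at 3 kb and 1.43 (1.36 to 1.504) at 4 kb or wider. It was 1.67 (1.65 to 1.69) where the H3K4me3 region lay outside the called domain and 2.03 (1.97 to 2.10) where it lay within. In pooled tags the lean was therefore larger at narrow H3K4me3 regions and at those inside the called bins. By single members the subsets differed less: more tags on the domain side were found in 73.1% (70.4 to 75.5) of members with H3K4me3 outside and 75.5% (69.1 to 81.1) with it within. At 4 kb or wider the count was 39 of 66 (59.1%, 46.3 to 71.0), and so few members leave that share imprecise. Members are not replicates, so these intervals are no test.

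H3K36me3 began beyond the H3K4me3 peak and rose over several kb. On the outer side of the summit it was lowest from 1000 to 800 bp, at 1.69 tags per kb, and at the summit it stood at 4.59 (0 to 200 bp on the domain side). It reached 6.50 tags per kb at 800 to 1000 bp, 15.4 at 1800 to 2000 bp and 23.2 at 2800 to 3000 bp. H3K4me3 had by then fallen to 4.78. Relative to input, H3K36me3 stood at 0.424 (0.413 to 0.434) in the first kb, 2.18 (2.13 to 2.22) in the second and 3.98 (3.91 to 4.05) in the third, and levelled near 5.98 from 8 to 18 kb. It first passed 50% of that level between 2 and 3 kb from the summit, and did so in the same kb in each of 3 classes of width. In these members the H3K4me3 region lay near the called border by definition, whatever the width. The distance from summit to rise is thus partly set by the rule, and nothing is read from its likeness between classes.

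**Figure D2:**
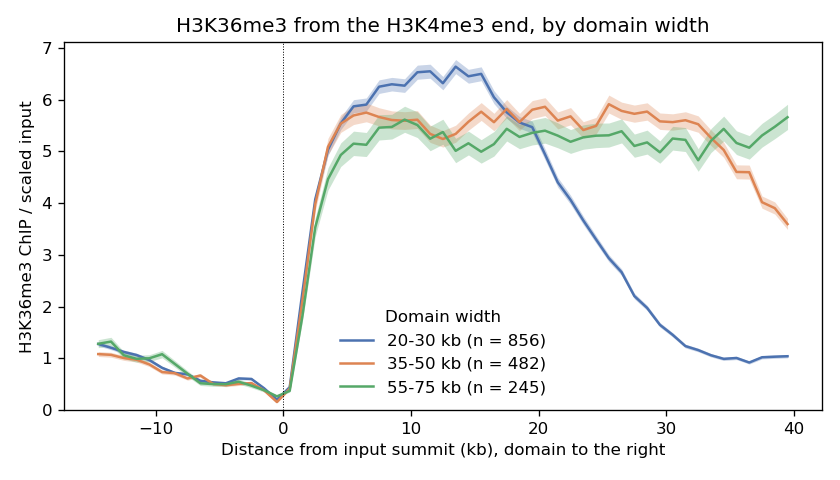
H3K36me3 ChIP over scaled input by distance from the summit of the unamplified input, in steps of 1 kb, with the domain to the right. Lines are members of 20 to 30 kb (856), 35 to 50 kb (482) and 55 to 75 kb (245) with H3K4me3 at 1 end, and bands are 95% intervals of counting error. All 3 lines rise within the first 5 kb, and the narrow domains reach the highest level and fall first.

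The level reached was higher in narrow members. From 8 to 18 kb the ratio was 6.33 in members of 20 to 30 kb, 5.55 in those of 35 to 50 kb and 5.30 in those of 55 to 75 kb. In ChIP tags alone the order was the same, at 40.8, 30.2 and 26.5 tags per kb. Across all 1816 members width and ratio were nearly unrelated, with a Spearman correlation of -0.062 and a Pearson correlation of -0.066 on the log2 scale. Members share 1 library and its depth, so these are descriptions.

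The outer side of the H3K4me3 region held little H3K36me3. The ratio was lowest in the kb just outside the summit, 0.196 (0.189 to 0.203), where the unamplified input rises, and 0.505 (0.488 to 0.522) from 5 to 4 kb outside. It climbed again to 1.22 (1.19 to 1.25) from 15 to 14 kb outside. The 10 kb beyond a border hold no called bin by the rule, so the low stretch and the climb past it are partly set by the rule. Beyond the far border the ratio climbed too, from 0.576 at 10 to 5 kb outside to 0.938 at 15 to 10 kb. All tags outside H3K36me3 regions together had a ratio of 0.361 (0.360 to 0.361), so the outer side beyond the summit was not below the general background except in its first kb. In ChIP tags the outer side held 2.27 tags per kb in its first kb, against 1.48 in all stretches outside H3K36me3 regions.

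Between its ends a domain was nearly level. With each domain cut into 10 equal parts from the H3K4me3 end, the H3K36me3 ratio was 4.03 (3.99 to 4.07) in part 1 and 5.70 (5.64 to 5.75) in part 2. It was 5.96 (5.91 to 6.01) in part 8 and ended at 3.89 (3.86 to 3.92) in part 10. The 5 far parts together stood at 1.006 (1.001 to 1.011) times the 5 near parts. That ratio fell below 1 under several other settings, to 0.979 with inputs scaled on background bins, and rose to 1.09 against the amplified input, so no direction is given. Among single members 779 of 1583 had more in the far parts, or 49.2% (46.7 to 51.7). In 1412 members (89.2%, 87.6 to 90.7) the near and far parts were within 2 times of each other, though the extremes ran from 0.196 to 4.88.

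ChIP tags alone did rise away from H3K4me3, with 31.1 per kb in part 2 and 38.0 in part 8, and the unamplified input rose beside them from 12.1 to 14.1. The amplified input moved from 1.26 to 1.34. H3K4me3 stood at 8.62 tags per kb in part 1, at 3.68 in part 2 and between 2.95 and 3.23 in all later parts, where its genome mean is 3.09. Beyond its second part a member was therefore close to the genome mean in H3K4me3 tags alone. The amplified input stood above its genome mean of 1.03 in those parts, between 1.285 and 1.338 tags per kb. Relative to input, H3K4me3 there was thus lower than the tags alone show. The rule also allows no second H3K4me3 region in a member.

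**Figure D3:**
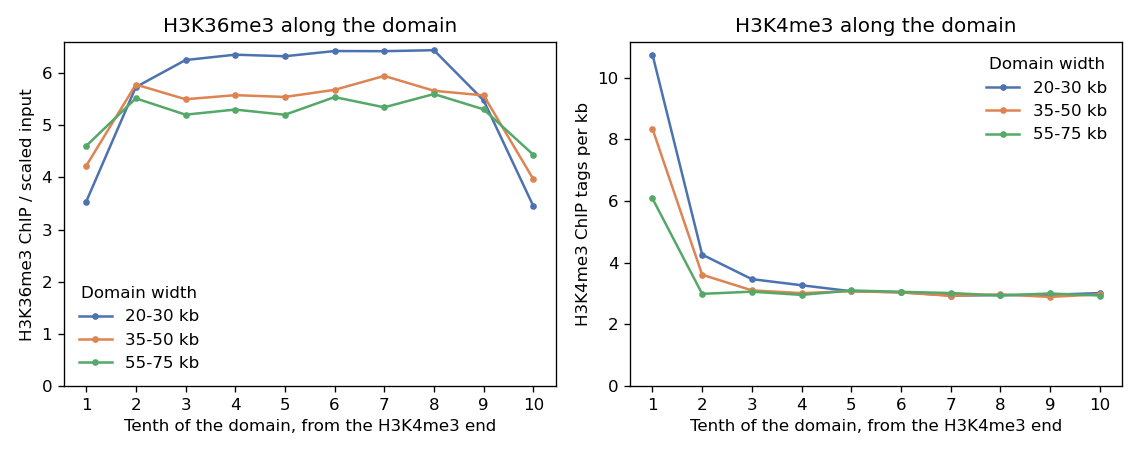
H3K36me3 ratio to input (left) and H3K4me3 ChIP tags per kb (right) in 10 equal parts of the domain, counted from the H3K4me3 end, for 3 classes of width. H3K36me3 is low in the first and last parts and level between them, and H3K4me3 is above 4 tags per kb in the first part of all 3 classes.

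The 2 borders of a member differed. In the 10 kb beyond the H3K4me3 end the H3K36me3 ratio was 0.516 (0.512 to 0.521), and beyond the far end it was 0.750 (0.744 to 0.756). The first is 0.689 (0.680 to 0.697) times the second. In ChIP tags the levels were 3.28 and 4.91 per kb. Bins just beyond a border are below the call limit by the rule at both ends, so the levels are bounded. The ends are not alike by the rule, since the H3K4me3 region lies at 1 end and none lies within 5 kb of the other. In 1199 of the 1583 members the H3K4me3 region lay outside the called bins. The first stretch then holds all or part of it, with its low H3K36me3 and high unamplified input. How much of the difference follows from this was not tested. The quotient of the 2 ends stayed below 1 in every setting tried but moved to 0.916 when no gaps were merged. The difference was seen in each class of width, with 0.520 against 0.743 at 20 to 30 kb, 0.511 against 0.754 at 35 to 50 kb and 0.514 against 0.766 at 55 to 75 kb.

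The step at the border was larger at the H3K4me3 end. From the last 5 kb outside to the first 5 kb inside, the H3K36me3 ratio went from 0.582 to 4.64 at the H3K4me3 end and from 0.928 to 4.46 at the far end. In tags per kb these steps ran from 4.21 to 27.1 and from 6.01 to 29.0. The unamplified input in the bin outside was 16.0 tags per kb at the H3K4me3 end and 14.3 at the far end. In many members the bin outside the H3K4me3 end held the H3K4me3 region itself, so the larger step is partly set by the choice of ends. Regions of 20 to 75 kb without H3K4me3 had ratios of 0.951 (0.944 to 0.958) and 0.961 (0.954 to 0.968) in the 10 kb beyond their ends of lower and higher coordinate. Both exceed the values beyond either end of members. Counted inward from the called border, the summit lay at a median of -2.16 kb (interquartile range -3.56 to -0.74 kb), that is outside the called bins, whose grid is 5 kb.

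Within H3K4me3 regions H3K36me3 was far below its level in the rest of the domain. Over all 1816 members the H3K4me3 regions held 49.5 H3K4me3, 0.799 amplified input, 4.71 H3K36me3 and 24.1 unamplified input tags per kb. The rest of the domains held 3.19, 1.31, 32.8 and 13.4. The H3K36me3 ratio was 0.431 (0.424 to 0.438) in the former and 5.41 (5.39 to 5.42) in the latter, a quotient of 0.0797 (0.0783 to 0.0811). The inputs differ here: the unamplified input was higher and the amplified input lower in H3K4me3 regions than in the rest, and the amplified input took part in choosing them. Against the amplified input the H3K36me3 ratio was 1.41 (1.36 to 1.47) in H3K4me3 regions and 6.005 (5.96 to 6.05) in the rest, a quotient of 0.236 (0.226 to 0.245). The direction was the same with both inputs and the size was not.

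The H3K4me3 regions that lie outside called H3K36me3 bins had to be low, so those within a domain are the fairer case. Of the 444 within, 436 had a lower H3K36me3 ratio than their whole domain, and 22 (4.95%, 3.13 to 7.41) had a ratio of at least 2. H3K36me3 gave no tag in 328 of all 1816 H3K4me3 regions, where a count of 0 allows up to 3 tags each.

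When H3K4me3 lay inside a domain, H3K36me3 dropped around it. Called H3K36me3 bins on both sides are fixed by the rule for this class, so only the drop between them is described. In these 232 members the ratio was 5.21 (5.002 to 5.42) from 6 to 5 kb on the side of lower coordinate and 5.11 (4.92 to 5.32) from 5 to 6 kb on the other. It fell to 3.46 and 3.85 from 2 to 3 kb, 1.64 and 1.69 from 1 to 2 kb, and 0.331 (0.309 to 0.354) and 0.358 (0.335 to 0.382) in the kb next to the summit. ChIP tags fell in the same way, from 34.9 per kb on the side of lower coordinate to 4.23 in the kb next to the summit. The sides were within 2 times of each other in 155 members and at least 4 times apart in 10, with a median of 1.63 for the higher over the lower side. The median ratio of this class was 4.41, against 5.34 and 5.27 with H3K4me3 at the end of lower and of higher coordinate. Its median width was 40 kb against 30 kb in both, and the definition of the class leaves little room for it in narrow domains.

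**Figure D4:**
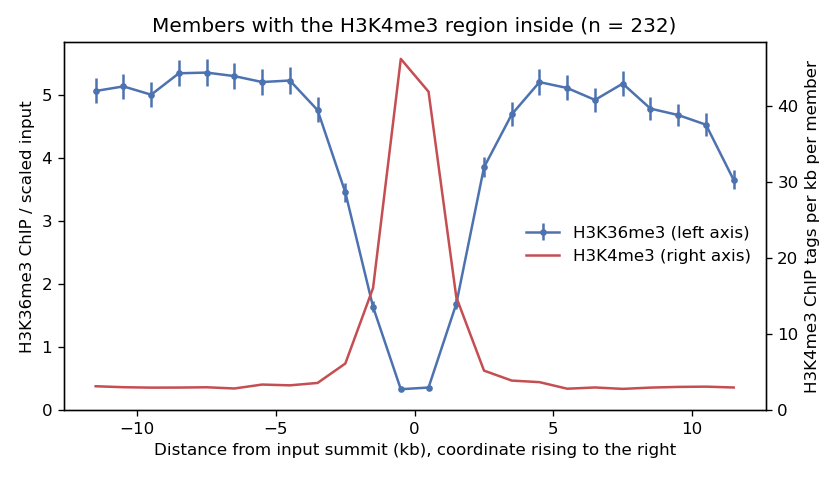
H3K36me3 ChIP over scaled input (points with 95% intervals of counting error, left axis) and H3K4me3 ChIP tags per kb (right axis) around the summit of the unamplified input in the 232 members with H3K4me3 inside. H3K36me3 stands near 5 on both sides and drops to 0.331 and 0.358 in the kb on either side of the summit, where H3K4me3 is highest.

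H3K36me3 was found inside wide H3K4me3 regions more often than inside narrow ones, though most wide regions were low in it as well. In the 75 members with an H3K4me3 region of 4 kb or more, 14 (18.7%, 10.6 to 29.3) had an H3K36me3 ratio of at least 2 inside it, against 1.46%, 1.39% and 1.48% of those 1, 2 and 3 kb wide. The pooled ratio was 1.71 (1.65 to 1.76) in the wide regions and 0.301 (0.295 to 0.307) in the others. The medians were 0.536 and 0.132, so a few wide regions carried much of the pooled value. The width of an H3K4me3 region was not part of the member rule, but wide regions hold more tags and are more precisely measured. A wide region also reaches further from the summit, where H3K36me3 had risen in members with H3K4me3 at 1 end (3.98 from 2 to 3 kb). Wide and narrow regions were not matched in their position relative to the called bins, so width and position were not told apart. Without the 75 members the quotient of 0.0797 was 0.0558.

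The widest H3K4me3 region among members spanned 27 kb on chromosome 13 (84188001 to 84215000) and covered its whole domain (84190001 to 84215000). It held 1931 H3K4me3 tags against 22 of the amplified input, or 29.0-fold (19.1 to 46.4), and 977 H3K36me3 tags against 299 of the unamplified input, or 7.21-fold (6.33 to 8.24). This is the 1 member whose H3K4me3 region touched both ends. On chromosome 9 the domain from 91155001 to 91175000 had 608 H3K36me3 and 220 unamplified input tags, a ratio of 6.10 (5.22 to 7.15). Its H3K4me3 region of 9 kb (91157001 to 91166000) held 388 H3K4me3 tags, 9 amplified input tags, 510 H3K36me3 tags and 125 unamplified input tags. The H3K36me3 ratio inside it was 9.01 (7.40 to 11.1), above that of the whole domain, so most of the domain's H3K36me3 lay under H3K4me3.

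In another wide case H3K36me3 under H3K4me3 was lower than in the domain. On chromosome 2 the domain from 115705001 to 115755000 had 811 H3K36me3 and 483 input tags, a ratio of 3.71 (3.31 to 4.16). Its H3K4me3 region of 11 kb straddled the end of higher coordinate (115753001 to 115764000) and held 615 H3K4me3, 15 amplified input, 128 H3K36me3 and 169 unamplified input tags. H3K36me3 inside it stood at 1.67 (1.32 to 2.12).

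Among the other members with most H3K4me3 tags over input, the domain on chromosome 12 from 81025001 to 81045000 held 839 H3K36me3 and 366 input tags. Its H3K4me3 region of 5 kb (81029001 to 81034000) held 469 H3K4me3 tags against 11 and 355 H3K36me3 tags against 115, so both marks were high there, with ratios of 14.1 (7.80 to 28.4) and 6.82 (5.51 to 8.49). The domain on chromosome 17 from 28760001 to 28780000 held 847 H3K36me3 tags against 258 of its input. Its H3K4me3 region of 2 kb (28760001 to 28762000) held 407 H3K4me3 tags and no amplified input tag, at least 44.8-fold over input when 3 input tags are allowed. Within that region H3K36me3 was at 25 tags against 28, a ratio of 1.97 (1.10 to 3.51).

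The 6 members with most H3K36me3 tags over input measured 45 to 75 kb, and this ranking by tag number favours long domains. On chromosome 12 the domain from 111055001 to 111120000 held 7623 H3K36me3 tags against 1709 of its input, a ratio of 9.85 (9.34 to 10.4). Its H3K4me3 region (111049001 to 111051000) held 68 H3K4me3 tags, 1 amplified input tag, 2 H3K36me3 tags and 56 unamplified input tags. The strongest H3K36me3 among members by this measure thus went with an H3K4me3 region below the median of 76 tags.

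H3K4me3 tags varied widely among the other 5. On chromosome 7 the domain from 125430001 to 125495000 held 5468 H3K36me3 tags against 1448, and its H3K4me3 region (125498001 to 125500000) held 81 H3K4me3 tags and 1 H3K36me3 tag. On chromosome 14 the domain from 65755001 to 65820000 held 6115 against 1404, a ratio of 9.62 (9.07 to 10.2). Its H3K4me3 region (65821001 to 65823000) was higher, with 207 H3K4me3 tags and 10 H3K36me3 tags. Of the 2 on chromosome 2, the domain from 26280001 to 26325000 had 5276 tags against 1590 and 227 H3K4me3 tags in a region across its end of higher coordinate.

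The other of chromosome 2 (32005001 to 32080000, 6972 tags against 2129) and the last of the 6, on chromosome 5 (114620001 to 114685000, 5053 against 2004), had H3K4me3 inside, with 101 and 157 H3K4me3 tags. Their H3K4me3 regions held 2 and 3 H3K36me3 tags against 56 and 69 unamplified input tags. In all 6 of these domains the H3K36me3 ratio within the H3K4me3 region was below 1. For the domain of chromosome 2 that starts at 26280001 it was 0.923 (0.640 to 1.31), an interval that includes 1. The H3K4me3 regions on chromosomes 7, 12 and 14 lay outside the called bins, where H3K36me3 had to be low.

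The 3 members ranked first by the lower bound of the ratio, a measure that does not add up over width, measured 20 kb. On chromosome 7 the domain from 11385001 to 11405000 held 1540 H3K36me3 tags against 139 of its input, a ratio of 24.5 (20.6 to 29.3). Its H3K4me3 region held 104 tags and no amplified input tag, at least 11.4-fold over input when 3 input tags are allowed. The others were on chromosome 5 (23205001 to 23225000, 1511 against 168, ratio 19.9, 16.9 to 23.4) and chromosome 7 (27445001 to 27465000, 1501 against 173, ratio 19.2, 16.4 to 22.6). The first of these had a weak H3K4me3 region of 22 tags that carried 28 H3K36me3 tags, and the second a strong one of 280 tags beyond the border.

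More tags in the H3K4me3 region went with somewhat more H3K36me3 across members. With members ranked by H3K4me3 tags and cut into 4 groups of 454, the pooled H3K36me3 ratio was 4.86 (4.84 to 4.89) in the lowest, 5.08 (5.05 to 5.10) in the second, 5.49 (5.47 to 5.52) in the third and 5.80 (5.77 to 5.83) in the highest. The mean width of the H3K4me3 region rose over these groups too, from 1.02 to 1.54, 2.05 and 2.80 kb. Denser H3K4me3 and a wider region were not told apart. The Spearman correlation of tags and ratio over 1816 members was 0.186 and the Pearson correlation of log2 values 0.179. H3K4me3 tags therefore say little about H3K36me3 in a given member. H3K4me3 tags and unamplified input tags of the same H3K4me3 regions had a Spearman correlation of 0.563, but both grow with the width of the region. Per kb, the unamplified input was lower in the highest group (22.4) than in the lowest (27.5).

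Set beside other H3K36me3 regions of the same length, members had more H3K36me3 than those without H3K4me3. The median ratios were 5.10 in members, 3.70 in the 1830 regions without an H3K4me3 region and 5.48 in the 586 with 2 or more. Within 20 to 30 kb the medians were 5.27, 3.46 and 5.46, within 35 to 50 kb 5.04, 3.87 and 5.42, and within 55 to 75 kb 4.98, 4.22 and 5.52. The gap between members and regions without H3K4me3 was smaller in wide regions, and the interquartile ranges overlapped in every class of width. Input tags per kb hardly separated members from regions without H3K4me3, at 13.6 and 13.4 unamplified and 1.30 and 1.26 amplified. Those with 2 or more H3K4me3 regions had 16.4 and 1.42.

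**Figure D5:**
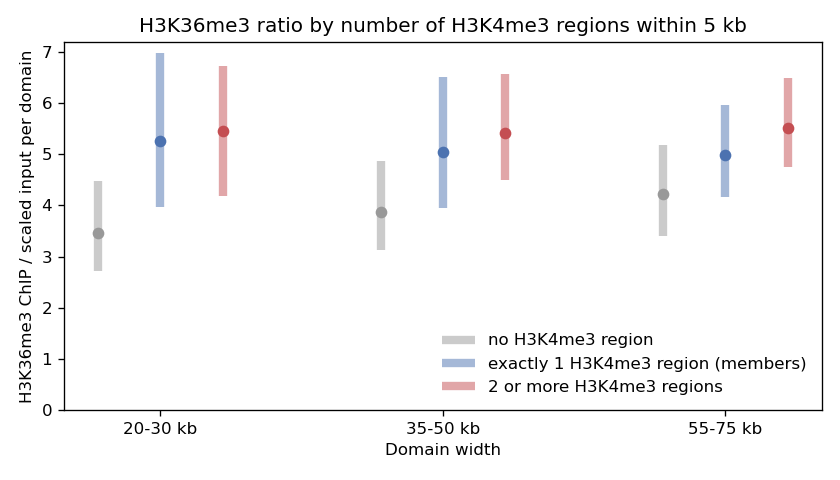
H3K36me3 ratio to input of domains of 20 to 75 kb by width and by the number of H3K4me3 regions within 5 kb. Points are medians and bars interquartile ranges over domains; members lie above the domains without H3K4me3 in each width class, with overlapping bars.

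The H3K4me3 regions of members were also set beside the rest of the 7992 H3K4me3 regions. The 1809 regions of members (a few serve more than 1 member) held 49.6 H3K4me3 tags per kb, close to the 48.3 of the 3512 others within 5 kb of an H3K36me3 region. The 2671 H3K4me3 regions without H3K36me3 nearby held 39.7. At equal width the values were 47.9, 44.4 and 36.7 among regions of 1 kb, 49.8, 49.4 and 41.6 at 2 kb, and 48.9, 49.1 and 41.3 at 3 kb. The first 2 classes thus differed more at 1 kb than over all widths, and less at 2 and 3 kb. Regions without H3K36me3 nearby were lowest at each of these widths, while those of members were not above the others near H3K36me3 at 3 kb. Regions of 2 kb or more made up 58.4% of those of members, 53.0% of the others with H3K36me3 nearby and 36.0% of those without. The unamplified input was alike in the 3 classes, at 24.1, 25.7 and 25.5 tags per kb, and so was the amplified input, at 0.798, 0.802 and 0.771. These levels are descriptions, since H3K4me3 tags chose the regions of all 3 classes.

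Bins with weaker H3K4me3 were as rare in members, away from the H3K4me3 region, as in other domains. At a looser limit of 10 tags and 2 times input, 379 members (20.9%, 19.02 to 22.8) had a further bin more than 2 kb from the H3K4me3 region, and in 113 of them it lay at or beyond the far end. The same was found in 430 of 1830 regions of this length without H3K4me3 (23.5%, 21.6 to 25.5). Such bins were 0.711% of those looked at, against 0.720% in H3K36me3 regions of the same length without H3K4me3 and 0.816% of all 1 kb bins outside H3K4me3 regions. In those 379 members the count of exactly 1 H3K4me3 region therefore rests on the limit used.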

How the data were processed

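ChIP-seq tag lists of 4 libraries from pooled E11.5 forebrain of CD1 embryos were analysed. The authors deposited 1 line per uniquely placed tag, with chromosome, position and sign and no other score, placed on mm8 (per the submitters' processing notes). Neither an aligner nor a read length is named in those sources. Repeats had been collapsed before deposit in 3 lists. The deposited H3K4me3 input kept them, and 1 tag per position and sign was used (2513019 of 3464484 nuclear tags), which limits the height of places with many true copies.

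Tags were shifted by 75 bp along their sign. The tags of both signs matched best at a lag of 120 bp for the H3K4me3 ChIP and 140 bp for the H3K36me3 ChIP. For the inputs this lag was 140 bp (unamplified) and 40 bp (amplified), and a shift of 75 bp does not match the latter. Inputs were scaled by library totals (3.03 for H3K4me3, 0.453 for H3K36me3). Ratios and shares have exact binomial (Clopper-Pearson) intervals, and quotients of ratios have intervals on the log scale. Profiles around the summit use steps of 200 bp, where finer steps had been planned. Genes and sequence features were not analysed here, since no mm8 genome was used. No test between groups was possible with 1 library each. Members, lists and named positions were chosen with earlier results of these data known. The summit analysis, the neighbour distances and the lists of wide H3K4me3 regions were added after the data were seen. Named members are the 6 with most H3K36me3 tags over input, the 4 with most H3K4me3 tags over input, the 3 with the highest lower bound of the ratio, the 3 with the widest H3K4me3 region and the median member of each position class. Chromosome 18 was left out of naming. The scripts were tested on simulated tags. Python 3.11, numpy 2.4.6, scipy 1.17.1 and pandas 2.3.3 were used.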

Additional observations from a re-analysis of the deposited data

How the results depend on the processing

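The alternatives were no shift of tags, inputs scaled on background bins, H3K4me3 at 8 times and H3K36me3 at 3 times input, no gaps merged, contact only, input repeats kept, the unamplified input for H3K4me3 and the amplified input for H3K36me3. The number of members moved by more than 1.5 times only with contact required (864). The share at an end was 83.7% with background scaling, 84.7% at 8 times input, 97.0% with no gaps merged, 53.8% with contact and 84.4% with the unamplified input. The far to near ratio turned below 1 with background scaling (0.979), at 8 times input (0.994), with no gaps merged (0.991) and with the unamplified input (0.979), and was 0.999 at 3 times input, 1.06 with contact and 1.09 against the amplified input; the cause was not tested. H3K36me3 at H3K4me3 regions relative to the rest of the domain was 0.0820 with no shift, 0.118 with background scaling, 0.0864 at 8 times and 0.0815 at 3 times input, 0.0661 with no gaps merged, 0.148 with contact, 0.111 with the unamplified and 0.236 with the amplified input, and 0.0558 without H3K4me3 regions of 4 kb or more. H3K36me3 beyond the H3K4me3 end relative to the far end was 0.674 with no shift, 0.737 with background scaling, 0.675 at 8 times and 0.635 at 3 times input, 0.916 with no gaps merged, 0.589 with contact, 0.720 with the unamplified and 0.725 with the amplified input. The share of H3K4me3 regions near another H3K36me3 region was 0.501% with background scaling, 0.941% at 8 times input, 18.3% with no gaps merged and 0% with contact (0 of 864, up to 0.426%). The lean of H3K4me3 was 1.79 with no shift, 1.77 at 8 times input, 1.62 with no gaps merged, 1.88 with contact, 1.79 with the unamplified input and 1.17 from the middle of the H3K4me3 region. The lean itself with all its settings, and the setting without wide H3K4me3 regions, were chosen after seeing the data. With input repeats kept there were 1810 members and the far to near ratio was 1.002 (0.997 to 1.008). No paired analysis was possible because each group has 1 library. Depth limits single H3K4me3 regions most, since their amplified input held a median of 1 tag.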

Other observations

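Members were spread over all 19 autosomes. Their density was 0.767 per covered Mb (exact Poisson 95% interval 0.732 to 0.803), from 0.570 (0.458 to 0.702) on chromosome 3 to 1.07 (0.893 to 1.28) on chromosome 11. As a share of the H3K36me3 regions of 20 to 75 kb on a chromosome, members ran from 39.2% on chromosome 3 to 49.7% on chromosome 14, so chromosomes differed more in the number of such regions than in the share with 1 H3K4me3 region.

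In 32 members (1.76%, 1.21 to 2.48) the H3K4me3 region also lay within 5 kb of another H3K36me3 region. With no gaps merged that share was 18.3%. In 7 cases both H3K36me3 regions were members, so that 1 H3K4me3 region stood between 2 domains. On chromosome 6 an H3K4me3 region of 215 tags (146533001 to 146536000) lay between domains with ratios of 8.58 (146505001 to 146530000) and 5.13 (146540001 to 146585000). On chromosome 12 one of 200 tags (65883001 to 65887000) lay between domains with ratios of 3.44 (65855001 to 65880000) and 6.06 (65890001 to 65945000). On chromosome 1 one of 103 tags (152154001 to 152157000) lay between domains with ratios of 4.86 (152120001 to 152150000) and 8.96 (152160001 to 152215000).

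On the H3K4me3 side the next H3K36me3 region was a median of 65 kb away and on the far side 60 kb. The next other H3K4me3 region was 105 and 108 kb away. Within 20 kb another H3K4me3 region was found on the H3K4me3 side of 12.2% (10.6 to 13.9) of the 1583 members with 1 end, and on the far side of 14.8% (13.1 to 16.6).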
